A study of Homo sapiens with 15 samples.

Results

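Cadherins, claudins and the other epithelial junction genes CDH1, CDH2, EPCAM, CLDN1, CLDN3, CLDN4, CLDN6, CLDN7, OCLN and TJP1 were followed across 2 ovarian cancer cell lines and 3 drug treatments. Their members were all probe sets (groups of short array probes read as 1 value) that carry exactly 1 of these 10 gene symbols in the platform's annotation. This gave 20 of the 54613 probe sets analysed, and 10 of 19775 genes. The rule itself uses gene symbols and no measured value. RNA was measured on 15 Affymetrix arrays in 5 groups of 3 biological replicates: A2780, a cisplatin-sensitive line; CP70, its cisplatin-resistant derivative, untreated; CP70 with decitabine; CP70 with PXD101; and CP70 with both drugs. Decitabine, a cytidine analog that traps DNA methyltransferases, was given at 0.1 µM for 48 h. PXD101 (belinostat), a histone deacetylase inhibitor, was given at 0.1 µM for 48 h when alone. In the combined arm decitabine was given for 48 h and PXD101 for 24 h of it, so exposure to PXD101 differed between the arms that held it. Treated cells were collected 96 h after the drugs were taken off. The labels name no vehicle and no harvest time for untreated CP70. They do not say whether CP70 is 1 clone.

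Epithelial cells are held together by adherens junctions, in which cadherins bind across the cell gap and catenins tie them to actin, and by tight junctions, in which claudins and occludin seal the gap and zonula occludens proteins anchor them. E-cadherin (CDH1) marks epithelial cells and N-cadherin (CDH2) marks neural and mesenchymal ones, and a switch from the first to the second is a known feature of the epithelial-mesenchymal transition. Repressors of the SNAI, ZEB and TWIST families bind E-box letters in promoters of epithelial genes, and several junction genes are known to be silenced by DNA methylation in carcinomas. Claudins 3, 4 and 7 and EPCAM are widely used as markers of ovarian carcinoma.

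The promoters of the claudins on which the results turn are printed first because decitabine acts on methylation at CG dinucleotides. RefSeq windows of 300 bases (250 before and 50 after an annotated start, build GRCh38.p14) were held for 8 of the 10 genes, with 14 windows in all. They were missing for CDH1 and EPCAM. Capitals mark each CG, and each window is written 5′ to 3′ on the gene's strand. CLDN7, which changed most with decitabine, has a pair of starts on the minus strand at chr17:7263164-7263463 (start 1) and chr17:7262429-7262728 (start 2). CLDN4 lies on the plus strand at chr7:73830746-73831045 and CLDN3, which was not called in any comparison, on the minus strand of the same chromosome at chr7:73770221-73770520. CLDN1, the claudin that separated the lines, lies on the minus strand at chr3:190322397-190322696.
CLDN7 start 1: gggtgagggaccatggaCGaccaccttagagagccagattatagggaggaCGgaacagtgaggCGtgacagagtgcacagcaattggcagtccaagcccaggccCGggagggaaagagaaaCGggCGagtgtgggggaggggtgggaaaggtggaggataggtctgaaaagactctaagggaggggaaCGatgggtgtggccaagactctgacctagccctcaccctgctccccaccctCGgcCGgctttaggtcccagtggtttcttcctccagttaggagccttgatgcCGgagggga
CLDN7 start 2: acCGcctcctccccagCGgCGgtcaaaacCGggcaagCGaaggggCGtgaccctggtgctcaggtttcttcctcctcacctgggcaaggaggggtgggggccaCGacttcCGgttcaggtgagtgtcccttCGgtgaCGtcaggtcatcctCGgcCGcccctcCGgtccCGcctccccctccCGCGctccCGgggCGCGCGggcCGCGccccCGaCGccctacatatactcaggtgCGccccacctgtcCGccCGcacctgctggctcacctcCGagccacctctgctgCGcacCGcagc
CLDN4: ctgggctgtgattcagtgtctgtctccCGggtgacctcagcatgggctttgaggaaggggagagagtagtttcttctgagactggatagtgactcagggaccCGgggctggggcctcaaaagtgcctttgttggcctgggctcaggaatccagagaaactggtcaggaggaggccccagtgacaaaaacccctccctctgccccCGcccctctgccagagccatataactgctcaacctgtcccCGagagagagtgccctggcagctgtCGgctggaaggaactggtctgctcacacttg
CLDN3: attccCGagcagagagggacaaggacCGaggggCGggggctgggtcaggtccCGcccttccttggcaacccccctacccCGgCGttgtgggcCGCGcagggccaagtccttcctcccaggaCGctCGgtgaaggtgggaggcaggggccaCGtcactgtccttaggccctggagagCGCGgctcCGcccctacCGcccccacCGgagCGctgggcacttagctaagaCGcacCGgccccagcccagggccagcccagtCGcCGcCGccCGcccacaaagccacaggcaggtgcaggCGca
CLDN1: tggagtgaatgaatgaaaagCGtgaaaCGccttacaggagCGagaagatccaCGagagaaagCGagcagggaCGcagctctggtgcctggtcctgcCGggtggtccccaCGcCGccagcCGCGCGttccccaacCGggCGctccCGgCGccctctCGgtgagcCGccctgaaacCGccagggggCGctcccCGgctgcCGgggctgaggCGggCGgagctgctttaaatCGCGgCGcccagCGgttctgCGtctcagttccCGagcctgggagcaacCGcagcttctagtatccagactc

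CLDN7 start 2 holds 30 CG dinucleotides, start 1 holds 10, CLDN4 holds 5, CLDN3 holds 24 and CLDN1 holds 31. Over all 35116 RefSeq windows of this length the median was 14, with quartiles of 4 and 28. CLDN4 and CLDN7 start 1 thus lay below that median, and CLDN7 start 2 and CLDN1 above the upper quartile. The other windows held 23 and 4 (CDH2), 21 (CLDN6), 26 and 28 (OCLN) and 34, 36, 21 and 3 (TJP1). The E-box letters CACCTG, and CAGGTG for the other strand, cannot share a base with a CG. They occurred in 6 of the 14 windows, and in 20.59% of all windows. CLDN7 start 2 held 5 of them, beginning at -174, -135, -20, -9 and 6 relative to the start, and 0.094% of all windows held as many or more. CLDN3, CLDN6, OCLN and TJP1 held 1 or 2 in a window, and CDH2, CLDN1 and CLDN4 held none. Methylation, binding and the start used were not measured on these arrays, so the counts describe letters only.

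**Figure D1:**
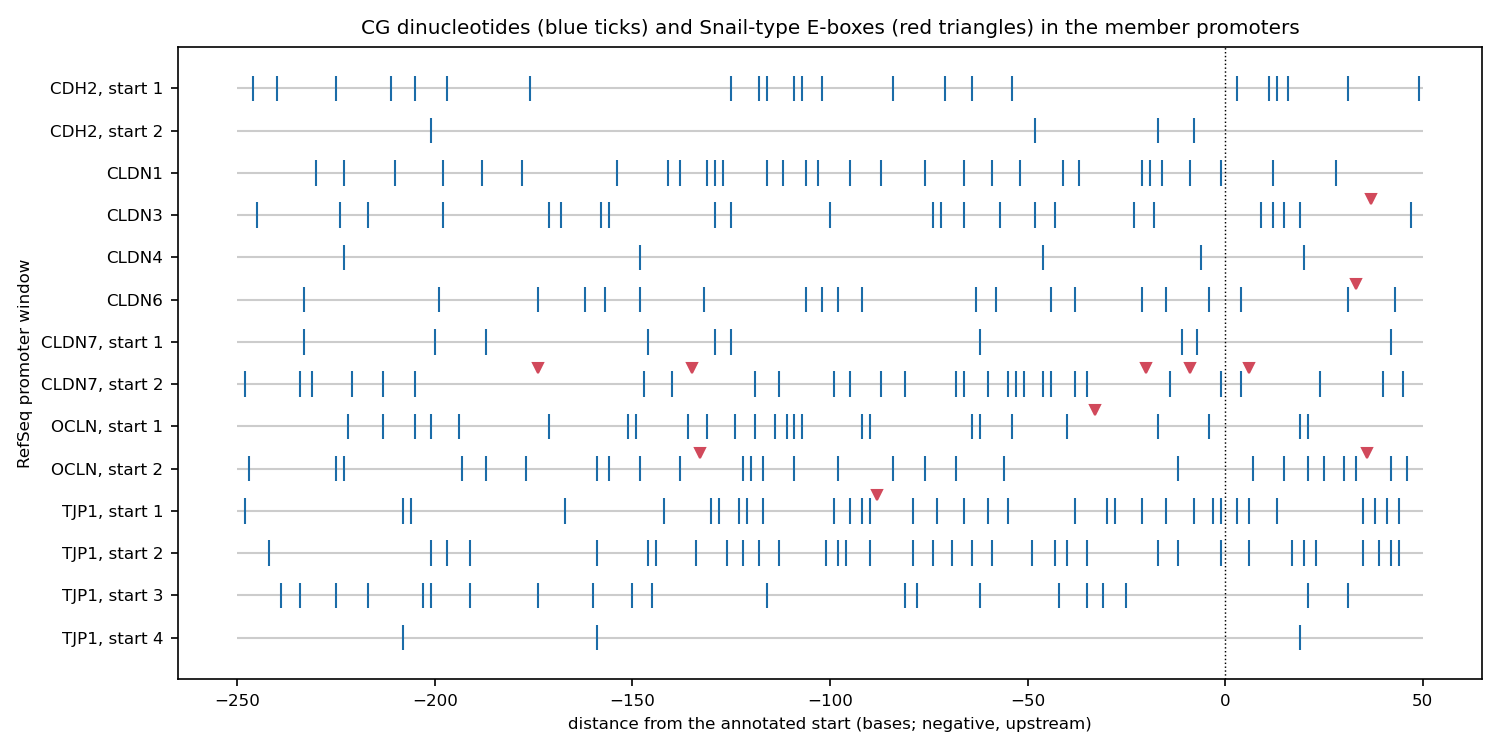
Each row is 1 of the 14 promoter windows, and the x axis is the distance in bases from the annotated start (negative, upstream). Blue ticks are CG dinucleotides and red triangles E-boxes; CLDN7 start 2 has 30 ticks and 5 triangles, and CLDN4 has 5 ticks.

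Values are log2 expression values as deposited, so a difference of 1 is a 2-fold difference, and levels of different probe sets cannot be set against each other. Array medians lay between 5.00 and 5.05, and lower quartiles between 3.70 and 3.76. Replicate 2 of untreated CP70 stood apart: its correlation over all probe sets was 0.984 with replicate 1 and 0.986 with replicate 3 of its own group, but 0.9945 to 0.9955 with the arrays treated with PXD101. RNA quality was read from actin, whose 3′ probe set exceeded the 5′ probe set by 0.63 to 0.86 in untreated CP70, 0.34 to 0.38 in A2780, 0.38 to 0.51 with PXD101, 0.34 to 0.79 with decitabine and 0.42 to 0.49 with both drugs. This sign moved with each comparison that uses untreated CP70, and its part in those results was not tested. The vimentin gene VIM, a mesenchymal filament, lay at 14.19 to 14.35 on every array. Of the ovarian carcinoma markers PAX8 lay at 6.97 to 7.48, while WT1 (3.45 to 3.85) and MUC16 (3.59 to 4.22) stayed close to the arrays' lower quartiles. Leukocyte markers (6 of 8 measured) averaged 4.54 to 4.98 over the arrays and endothelial markers (6 of 6) 4.55 to 4.65. Fibroblast markers (9 of 9) averaged 7.52 to 7.74.

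CDH2 separated the lines and CDH1 stayed at the bottom of the range. CDH2 (203440_at) read 11.84, 11.70 and 11.68 in A2780, then 10.14, 9.74 and 10.17 in untreated CP70, 9.41, 9.63 and 9.51 with decitabine, 9.60, 9.61 and 9.81 with PXD101, and 9.37, 9.39 and 9.48 with both drugs. A2780 lay far above every CP70 array. From lowest to highest the group means ran 9.42 ± 0.06 (SD, n = 3) with both drugs, 9.52 ± 0.11 with decitabine, 9.67 ± 0.12 with PXD101, 10.02 ± 0.24 in CP70 and 11.74 ± 0.09 in A2780, and each pair of neighbours below A2780 had overlapping arrays. The other CDH2 probe set (203441_s_at) ran from 8.59 to 10.99 with the same split of A2780 from CP70. For CDH1 the 15 arrays ran from 3.41 to 3.84 (201130_s_at) and from 3.19 to 3.86 (201131_s_at), around the arrays' lower quartiles. Groups overlapped at the first, and at the second A2780 (3.38 to 3.55) lay below decitabine (3.65 to 3.75) and both drugs (3.67 to 3.84). No detection call was used, so a level this low says only that CDH1 was not separated from the dimmest probe sets of the array.

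EPCAM, a surface adhesion protein of epithelia that binds claudin 7, had 1 probe set (201839_s_at). It read 6.26, 6.02 and 6.81 in A2780, 7.17, 7.23 and 7.32 in CP70, 7.90, 8.01 and 7.93 with decitabine, 6.40, 7.03 and 6.90 with PXD101, and 7.86, 8.10 and 8.21 with both drugs. The 6 arrays that held decitabine were the highest 6 of the 15. Group means were in the ascending order A2780 (6.36 ± 0.41), PXD101 (6.78 ± 0.33), CP70 (7.24 ± 0.08), decitabine (7.95 ± 0.06) and both drugs (8.06 ± 0.18). A2780 and PXD101 overlapped, as did decitabine and both drugs.

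CLDN7, a claudin of simple epithelia, also had 1 probe set (202790_at). Its values were 4.77, 5.58 and 5.32 in A2780, 5.34, 5.43 and 5.83 in CP70, 7.94, 8.42 and 7.52 with decitabine, 5.91, 6.34 and 6.22 with PXD101, and 7.83, 8.51 and 8.65 with both drugs. The lowest array with decitabine (7.52) lay above the highest without it (6.34). Group means were ordered A2780 (5.22 ± 0.41), CP70 (5.53 ± 0.26), PXD101 (6.16 ± 0.22), decitabine (7.96 ± 0.45) and both drugs (8.33 ± 0.44). A2780 overlapped with CP70, and decitabine with both drugs.

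CLDN1, a claudin needed for the skin barrier, differed between the lines. Its brighter probe set (222549_at) read 3.94, 3.90 and 3.89 in A2780, 6.55, 5.72 and 6.43 in CP70, 5.93, 5.9996 and 5.70 with decitabine, 5.35, 5.84 and 5.60 with PXD101, and 5.94, 6.10 and 6.25 with both drugs. All 12 CP70 arrays lay above the 3 of A2780, and the 4 CP70 groups overlapped as neighbours, with CP70 replicate 2 (5.72) below its own replicates. The dimmer probe set (218182_s_at) ran from 3.69 to 3.92 in A2780 and from 4.04 to 4.88 in untreated CP70. Treated CP70 arrays did not all lie above A2780 there. The PXD101 arm spanned 3.79 to 3.94 and the decitabine arm 3.78 to 4.29, and each overlapped A2780. The combined arm (3.97 to 4.14) lay above A2780.

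The other claudins moved little. CLDN4 (201428_at), a tight junction claudin often raised in carcinomas, read 4.96, 5.02 and 4.78 in A2780, 4.88, 4.94 and 5.05 in CP70, 5.07, 5.25 and 5.08 with decitabine, 5.00, 4.83 and 5.00 with PXD101, and 5.61, 5.73 and 5.28 with both drugs. Both drugs together gave the 3 highest arrays. The second CLDN4 probe set (1569421_at) ran from 4.23 to 4.81 and did not follow it (Pearson's r = 0.03 over the 15 arrays). CLDN3 ran from 4.85 to 5.23 (203954_x_at) and from 3.66 to 4.35 (203953_s_at). CLDN6, a claudin of embryonic epithelia, ran from 6.90 to 7.33 (208474_at) and from 3.79 to 4.17 (237810_at). Groups overlapped at 203953_s_at and at both CLDN6 probe sets, while at 203954_x_at the arrays with both drugs lay above those of CP70 and of PXD101. None of these 4 probe sets was called in any of the 9 comparisons.

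OCLN encodes occludin and TJP1 the scaffold protein ZO-1. OCLN (227492_at) read 9.10, 8.86 and 8.73 in A2780, 9.19, 8.12 and 9.01 in CP70, 8.37, 8.57 and 8.29 with decitabine, 7.61, 8.20 and 7.97 with PXD101, and 8.36, 8.72 and 8.63 with both drugs. TJP1 (202011_at) read 10.78, 10.69 and 10.58 in A2780, 10.64, 10.33 and 10.79 in CP70, 10.62, 10.61 and 10.32 with decitabine, 9.88, 10.15 and 10.02 with PXD101, and 10.40, 10.58 and 10.62 with both drugs. For both genes PXD101 alone had the lowest group mean (7.93 ± 0.29 and 10.02 ± 0.14), and CP70 replicate 2 was the lowest of its group. OCLN (227492_at) in that replicate fell inside the range of the PXD101 arrays, and TJP1 (202011_at) above it. At the other TJP1 probe set (214168_s_at) that replicate read 8.17, inside the PXD101 range of 8.08 to 8.29. The other OCLN probe sets were positively correlated with 227492_at (r of 0.57 to 0.90 over the 15 arrays, which share the 5 groups), as were the pair of TJP1 probe sets (0.88), the pair of CDH2 (0.99) and the pair of CLDN1 (0.62).

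**Figure D2:**
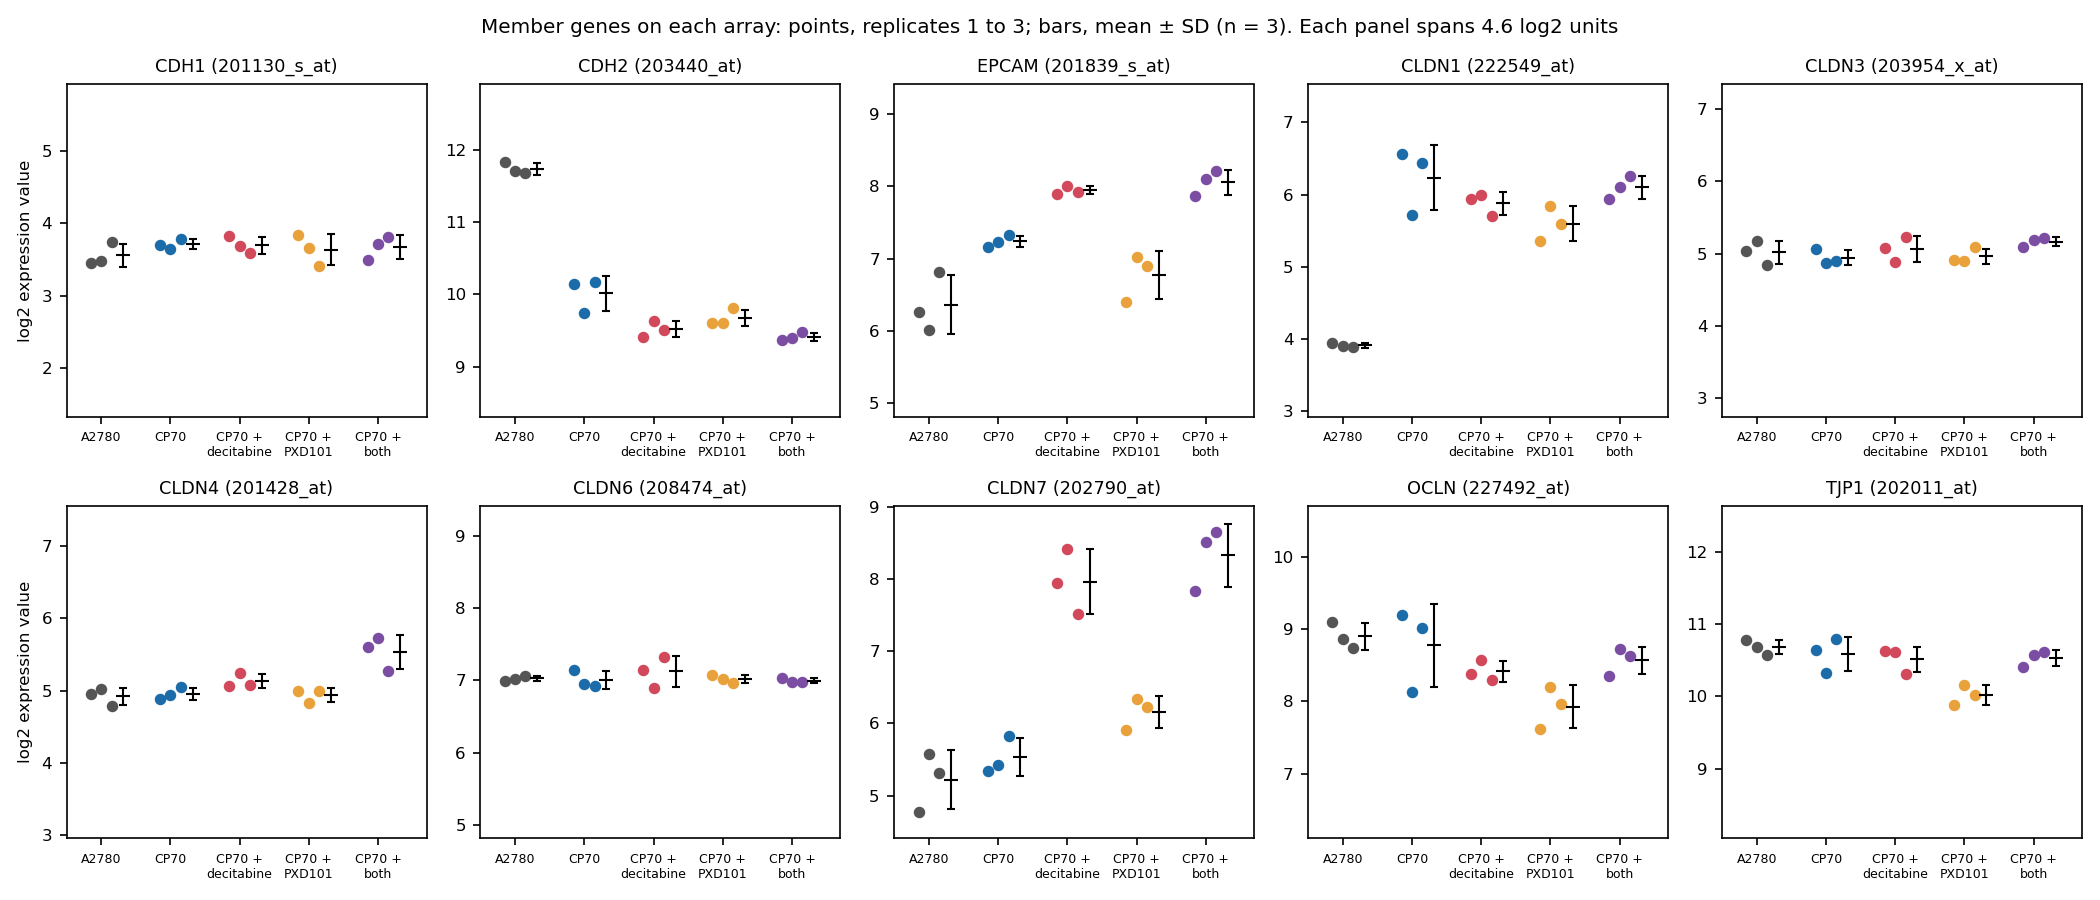
The y axis of each panel is the deposited log2 value of 1 member gene, at the brightest of its probe sets, and every panel spans 4.6 log2 units. Points are the 3 replicates of each group and bars the mean ± SD; CLDN7 and EPCAM are highest in the arms that hold decitabine, CDH2 is highest and CLDN1 lowest in A2780.

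How the resistant line differs from its parent was asked by setting untreated CP70 against A2780. CDH2 fell by 1.72 ± 0.11 (SE) and 1.81 ± 0.12 at its pair of probe sets, or 3.30-fold at the first (limma adjusted p = 1.9e-08 and 1.7e-08 over all probe sets). CLDN1 rose by 2.33 ± 0.18 (222549_at, 5.01-fold, adjusted p = 1.2e-07) and by 0.66 ± 0.17 (218182_s_at, adjusted p = 0.0102). Both CLDN1 probe sets lay near the arrays' lower quartiles in A2780, where no detection call was used, so the size of the fold is uncertain. EPCAM rose by 0.88 ± 0.18 (limma adjusted p = 0.00200). Thus 5 of 20 member probe sets were called, 3 higher and 2 lower, against 24% of all probe sets (11.5% higher, 12.5% lower). For CDH1 the differences were 0.16 (95% interval -0.11 to 0.42) and 0.28 (0.01 to 0.55), for CLDN7 0.31 (-0.24 to 0.86) and for OCLN (227492_at) -0.12 (-0.60 to 0.35), none of them called. The call of CLDN1 218182_s_at was lost without CP70 replicate 1 (0.46, limma adjusted p = 0.0594) and without replicates 1 and 3 together (0.22, 0.548). In a bulk culture, fewer cells with a transcript and less transcript per cell cannot be told apart.

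Decitabine alone was set against untreated CP70 to ask which genes change under the demethylating drug. CLDN7 rose by 2.42 ± 0.26 (5.37-fold, limma adjusted p = 3.3e-05) and kept its call in each of the 16 alternatives run. EPCAM rose by 0.71 ± 0.18 (1.63-fold, limma adjusted p = 0.0335), with no overlap between the groups, and CDH2 (203440_at) fell by 0.50 ± 0.11 (limma adjusted p = 0.0190). These 3 of 20 member probe sets, 2 higher and 1 lower, compare with 5.56% of all probe sets (2.91% higher, 2.65% lower). The second CDH2 probe set differed by -0.35 (95% interval -0.60 to -0.09, limma adjusted p = 0.112). CDH1 differed by -0.02 at both probe sets, with 95% intervals of -0.28 to 0.25 and -0.29 to 0.25. CLDN3 differed by 0.12 and 0.24, CLDN4 by 0.18 and 0.16 and OCLN (227492_at) by -0.36 (-0.84 to 0.11), and none was called. The call of EPCAM was lost without CP70 replicate 1 (0.67, adjusted p = 0.121) or 3 (0.75, 0.0798) and without decitabine replicate 1 (0.73, 0.0690), 2 (0.68, 0.101) or 3 (0.72, 0.0839). That of CDH2 was lost without CP70 replicate 1 (-0.44, limma adjusted p = 0.0978) or 3 (-0.42, 0.102) and decitabine replicate 1 (-0.44, 0.0711) or 3 (-0.49, 0.0564), and against the PXD101 arrays it was -0.15 (0.519). The CDH2 call was also lost in a fit of only these groups (-0.50, limma adjusted p = 0.18). With CP70 replicate 2 as the only untreated array CDH2 differed by -0.22.

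PXD101 alone was compared with the same untreated arrays. TJP1 (202011_at) fell by 0.57 ± 0.13 (limma adjusted p = 0.0284), OCLN (227492_at) by 0.85 ± 0.22 (0.0416) and CLDN1 (218182_s_at) by 0.61 ± 0.17 (0.0490). That is 3 of 20 member probe sets, all lower, against 5.92% of all probe sets (3% higher, 2.92% lower). The other probe sets of these genes were below CP70 without being called: OCLN by -0.51, -0.74 and -0.38, TJP1 by -0.43 and CLDN1 by -0.64. CLDN7 was 0.62 above CP70 (95% interval 0.08 to 1.17, adjusted p = 0.160 by limma) and EPCAM -0.46 (-0.85 to -0.08, 0.139). Each of the 3 calls was lost without CP70 replicate 1 or 3 or any 1 PXD101 array, where TJP1 differed by -0.46 to -0.63, OCLN by -0.64 to -0.98 and CLDN1 by -0.41 to -0.65. Against CP70 replicate 2 as the only untreated array the differences were -0.31, -0.20 and -0.18, and without replicate 2 10 member probe sets were called, in a fit that called 10973 of all 54613 probe sets. The fits without CP70 replicate 1 or 3, or without any 1 PXD101 array, called 0 of all probe sets in limma. The loss of calls in them was thus array-wide. With a replicate block the 3 calls were also lost (limma adjusted p = 0.0502, 0.0688 and 0.0752 for TJP1, OCLN and CLDN1). That fit still called 1342 of all 54613 probe sets.

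Both drugs together raised CLDN7 by 2.79 ± 0.26 over untreated CP70 (6.94-fold, limma adjusted p = 5.8e-06). EPCAM rose by 0.82 ± 0.18 (limma adjusted p = 0.0126) and CLDN4 (201428_at) by 0.58 ± 0.12 (0.00627), while CDH2 fell by 0.60 ± 0.11 and 0.43 ± 0.12 (0.00474 and 0.0404). These 5 of 20 member probe sets, 3 higher and 2 lower, compare with 7.02% of all probe sets (3.95% higher, 3.07% lower). The call of EPCAM was lost without CP70 replicate 1 (0.78, limma adjusted p = 0.0553) and without replicate 2 (0.80, 0.0571) or 3 (0.74, 0.0532) of the combined arm. Without CP70 replicates 1 and 3 together the calls of CLDN4 (0.59, limma adjusted p = 0.0869) and of the larger CDH2 change (-0.32, 0.282) were lost, as they were in a fit of only these groups (0.0694 and 0.0629). The smaller CDH2 call was lost without CP70 replicate 1 (-0.30, limma adjusted p = 0.203) or 3 (-0.41, 0.141) and without any 1 array of the combined arm (-0.42 to -0.45).

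**Figure D3:**
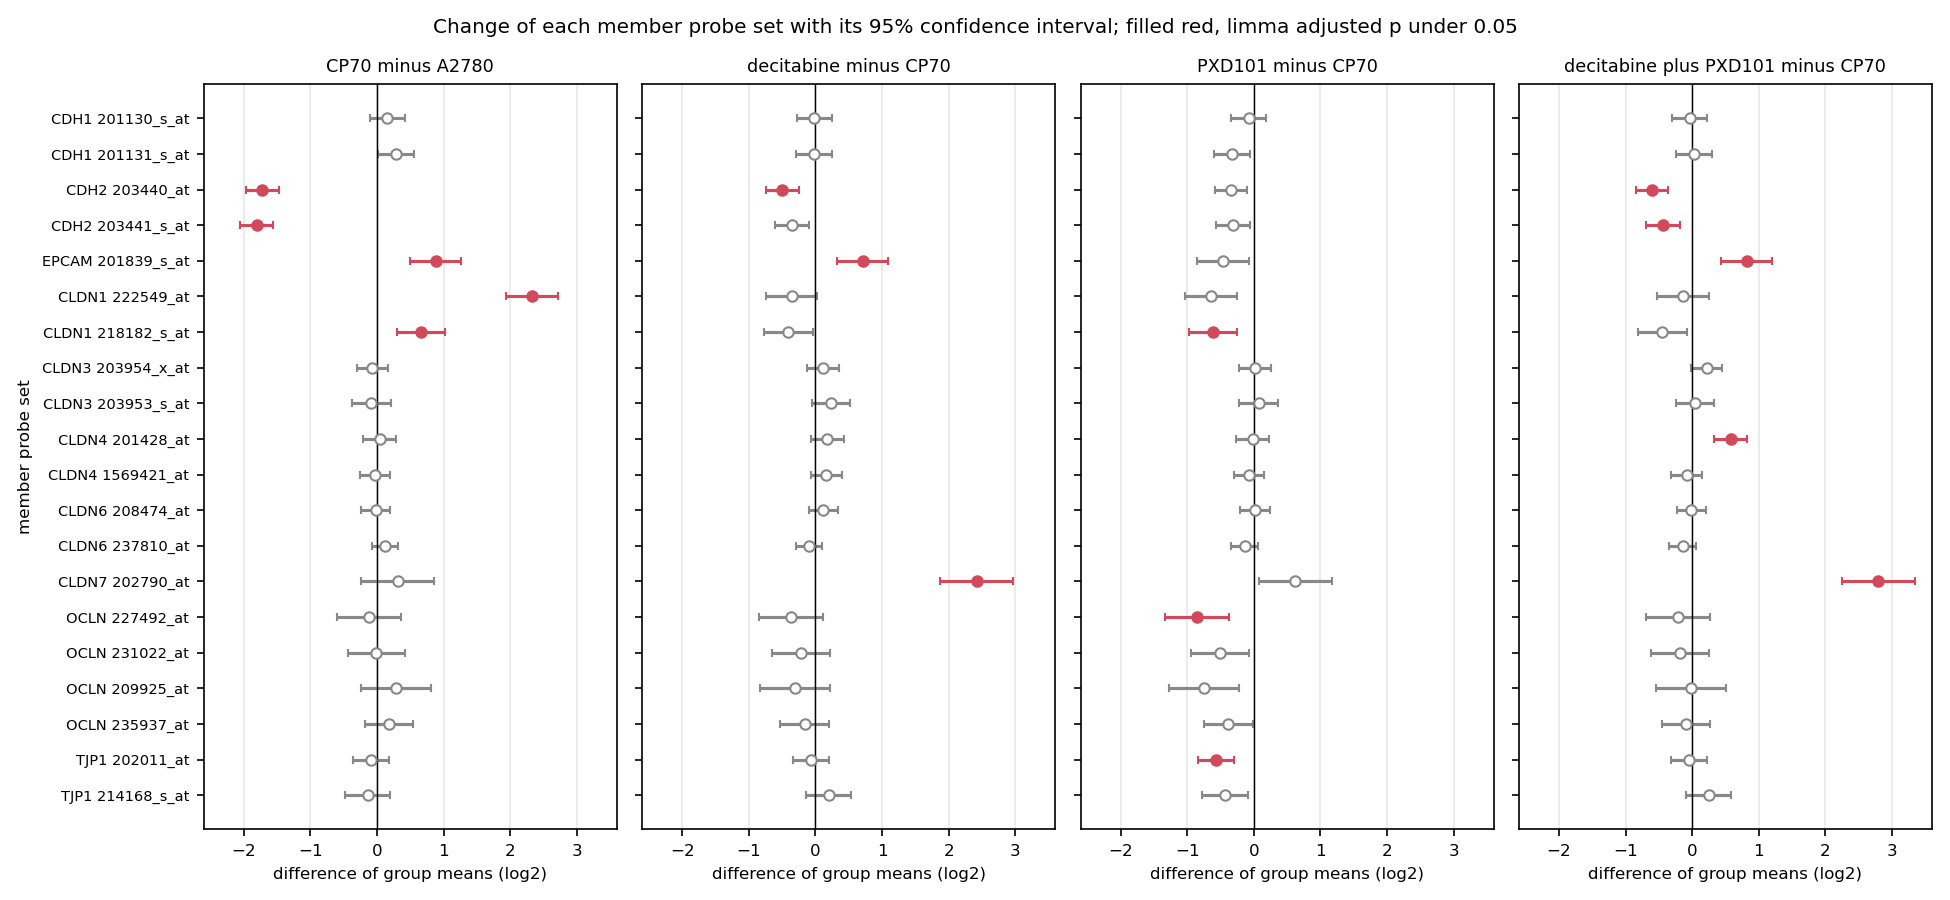
The x axis is the difference of group means in log2 units for the 4 comparisons with an untreated line, and each row is 1 of the 20 member probe sets. Points are limma estimates with 95% confidence intervals, filled red where the adjusted p is under 0.05; CLDN7 lies furthest right in both arms with decitabine (2.42 and 2.79), CDH2 furthest left in CP70 minus A2780 (-1.72 and -1.81).

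What the second drug added was asked by 3 further comparisons. Adding PXD101 to decitabine gave 0 calls among the 20 member probe sets in limma and 0 by rank product, 2 at an unadjusted p under 0.05, and calls at 0.00366% of all probe sets. CLDN7 differed there by 0.37 (95% interval -0.18 to 0.92), EPCAM by 0.11 (-0.28 to 0.50), and the pair of CLDN4 probe sets by 0.40 (0.16 to 0.65) and -0.25 (-0.48 to -0.02). Both drugs were also set against PXD101 alone, where PXD101 was given for 24 h and 48 h. Added decitabine and shorter PXD101 cannot be told apart there. CLDN7 was higher with both drugs by 2.17 ± 0.26, EPCAM by 1.28 ± 0.18, CLDN4 (201428_at) by 0.59 ± 0.12 and TJP1 by 0.51 ± 0.13 and 0.68 ± 0.16 (limma adjusted p = 8.4e-05, 0.000457, 0.00529, 0.0231 and 0.0173). That is 5 of 20 member probe sets, all higher, against 7.28% of all probe sets (3.94% higher, 3.34% lower). The calls of TJP1 were lost without PXD101 replicate 1 (0.44 and 0.62) or 3 (0.51 and 0.68) and without replicate 2 (0.49 and 0.62) or 3 (0.47 and 0.64) of the combined arm. The non-additive response, the change with both drugs less the changes with each, gave 0 member calls in limma, with 8 at an unadjusted p under 0.05 and 0.0146% of all probe sets called. It too sets PXD101 for 24 h against PXD101 for 48 h. OCLN (227492_at) stood at 1.00 (95% interval 0.33 to 1.68), CLDN1 (222549_at) at 0.86 (0.31 to 1.41) and TJP1 (202011_at) at 0.58 (0.20 to 0.97). Without CP70 replicate 2, 6 member probe sets of these 3 genes were called, in a fit that called 7191 of all 54613 probe sets against 8 with all arrays, among them OCLN 227492_at at 1.33 and CLDN1 222549_at at 1.12 (limma adjusted p = 0.00105 and 0.00106).

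The mean of the 6 arrays with decitabine less the mean of the 6 CP70 arrays without it rests less on the untreated arrays, and is called the decitabine main effect here. In it PXD101 was given for 24 h in the combined arm and for 48 h in the arm with PXD101 alone. By this measure CLDN7 rose by 2.297 ± 0.18 (4.92-fold, limma adjusted p = 5.9e-07), EPCAM by 0.99 ± 0.13 (1.99-fold, 0.000106) and CLDN4 (201428_at) by 0.38 ± 0.08 (0.00604). TJP1 (214168_s_at) rose by 0.44 ± 0.11 (limma adjusted p = 0.0205) and CDH2 (203440_at) fell by 0.38 ± 0.08 (0.00661). The other probe sets of these genes were not called, with TJP1 (202011_at) at 0.22 (limma adjusted p = 0.152) and CDH2 (203441_s_at) at -0.24 (0.0984). Decitabine alone against CP70 gave 0.20 at TJP1 214168_s_at (limma adjusted p = 0.57). The 5 of 20 member probe sets called, 4 higher and 1 lower, compare with 10.4% of all probe sets (5.25% higher, 5.16% lower). CLDN7, EPCAM and CLDN4 kept their calls in each of the 20 alternatives. TJP1 lost its call without decitabine replicate 1 (0.41, limma adjusted p = 0.0519) or 2 (0.41, 0.0548), PXD101 replicate 1 (0.41, 0.0516) or replicate 2 of the combined arm (0.41, 0.0617), and CDH2 without CP70 replicates 1 and 3 together (-0.24, 0.0813). CDH1 was at 0.01 (95% interval -0.17 to 0.20) and 0.17 (-0.02 to 0.36).

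Decitabine-treated CP70 was also set beside the parental line. CLDN7 was 2.74 ± 0.26 higher than in A2780, EPCAM 1.58 ± 0.18 and CLDN1 (222549_at) 1.97 ± 0.18 higher, and CDH2 -2.22 ± 0.11 and -2.16 ± 0.12 lower (limma adjusted p of 7.32e-06 or less for each). These 5 of 20 member probe sets, 3 higher and 2 lower, compare with 23.9% of all probe sets (11.6% higher, 12.3% lower). None of the 4 genes called thus lay nearer to its A2780 level with decitabine than without it by group mean, except CLDN1, at 5.88 ± 0.16 against 6.24 ± 0.45 untreated and 3.91 ± 0.03 in A2780, a step that was not called. The other CLDN1 probe set (218182_s_at) was not called against A2780 here (0.25 ± 0.17, limma adjusted p = 0.355). It stood at 4.07 ± 0.27 with decitabine, 4.48 ± 0.42 untreated and 3.82 ± 0.12 in A2780. Rank product, which uses ranks of fold changes between array pairs, called 3 member probe sets between the lines, 1 with decitabine, 0 with PXD101, 1 with both drugs against CP70, 0 and 2 with both drugs against decitabine and PXD101, and 5 here. Over all probe sets it called 4.5%, 1.46%, 1.37%, 1.85%, 0.0952%, 3.46% and 5%.

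Related genes were counted on 13 lists with 171 genes, 156 of them measured, taking the brightest probe set of each. Between the lines 29.9% of all genes were called (15.4% higher, 14.5% lower), with a median difference of 0.01. Among 18 other cadherins CDH10 and CDH12, type II cadherins, fell by 3.94 ± 0.13 and 3.96 ± 0.14 and the rest were not called (list median -0.06). CDH10 read 9.17 to 9.29 in A2780 and 5.23 to 5.36 in CP70, while CDH12 in CP70 (3.18 to 3.67) lay below the arrays' lower quartiles. Among 15 other claudins CLDN11, a claudin of myelin and Sertoli cells, and CLDN23 rose by 2.53 ± 0.11 and 1.75 ± 0.16 (list median 0.17). In 15 desmosome genes 4 rose and 0 fell, led by the desmosomal cadherin DSG2 at 4.71 ± 0.11, from 4.19 to 4.45 in A2780 to 8.96 to 9.13 in CP70. DSC2 rose by 1.38 ± 0.18, and DSP by 0.82 ± 0.24, a call lost without A2780 replicate 3 (0.78) or CP70 replicate 1 (0.68) or 3 (0.67).

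Adherens junction linkers gave 4 rises and 3 falls among 15 between the lines, with the cell adhesion protein NECTIN3 at 2.03 ± 0.15 and the actin linker VCL (vinculin) at -1.39 ± 0.19. Tight junction membrane, scaffold and polarity genes gave 5 rises and 3 falls among 20. JAM2, a junctional adhesion molecule, rose by 2.13 ± 0.18 and CGNL1, a paracingulin scaffold, fell by 1.84 ± 0.14. Of 13 other epithelial surface and trafficking genes 3 rose and 2 fell, with CDS1, a phospholipid enzyme, at 4.44 ± 0.17 and MAL2, an apical sorting protein, at -2.05 ± 0.29. Of 9 epithelial transcription and splicing regulators 1 rose and 1 fell: the splicing factor ESRP1 at 3.05 ± 0.49 and GRHL3 at -1.07 ± 0.14. ESRP1 read 8.46, 5.58 and 7.97 in CP70, so replicate 2 lay far below the others, against 4.24 to 4.34 in A2780. Repressors of epithelial genes gave 4 rises and 2 falls among 12, with TWIST2 at 3.22 ± 0.17, SNAI2 at 0.77 ± 0.13 and TCF4 at -1.37 ± 0.13. Mesenchymal markers gave 3 rises and 4 falls among 11, with TGFBI at 3.12 ± 0.13 and the kinase AXL at -2.88 ± 0.20. Ovarian carcinoma markers gave 1 rise among 9, KRT18 at 1.84 ± 0.19.

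In the decitabine main effect 13% of all genes were called (7.54% higher, 5.46% lower), with a median of 0.01. Members of the desmosome list rose in 3 of 15 cases and fell in 0 (list median -0.04): DSP (desmoplakin) by 0.78 ± 0.17, PPL (periplakin) by 0.70 ± 0.11 and PKP3 (plakophilin) by 0.63 ± 0.13. PKP3 read 7.33 to 7.75 with decitabine and 7.39 to 7.57 with both drugs, against 6.67 to 6.72 in CP70 and 7.09 to 7.17 with PXD101. The arms with decitabine thus did not overlap with the CP70 arms without it. Of the 13 epithelial surface and trafficking genes 5 rose and 1 fell (list median 0.15). They included the glycoprotein CD24 at 1.27 ± 0.18, AP1M2, a subunit of an epithelial sorting adaptor, at 1.11 ± 0.12, the protease inhibitor SPINT2 at 1.02 ± 0.09 and the mucin MUC1 at 0.47 ± 0.09. SPINT2 read 5.85 to 6.48 on the 6 arrays with decitabine and 4.67 to 5.38 on the 6 without. Of 9 ovarian carcinoma markers 3 rose, the simple-epithelial keratins KRT19 (2.403 ± 0.15), KRT8 (1.43 ± 0.11) and KRT18 (1.28 ± 0.13), with a list median of 0.10. KRT19 read 4.04 to 4.77 in CP70, 5.00 to 5.27 with PXD101, 6.59 to 7.30 with decitabine and 7.14 to 7.49 with both drugs.

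Tight junction genes were split, 3 up and 3 down of 20 (list median 0.02), with MARVELD2 (tricellulin) at 0.73 ± 0.10 and JAM2, PATJ and AMOTL1 at -0.80 ± 0.13, -0.58 ± 0.09 and -0.58 ± 0.14. Adherens linkers gave 2 rises and 1 fall among 15 (median 0.08), with NECTIN4 at 0.66 ± 0.10, VCL at 0.68 ± 0.13 and ABLIM1 at -0.36 ± 0.09, a call lost without decitabine or PXD101 replicate 2 (-0.33 and -0.34). Epithelial regulators gave 1 rise among 9 (median -0.03), the ETS factor ELF3 at 0.60 ± 0.09, and 0 of the 18 other cadherins and 0 of the 15 other claudins were called, with 2 and 1 at an unadjusted p under 0.05 in limma. Repressors gave 1 rise and 3 falls among 12 (median -0.10). TWIST2, TWIST1 and TCF4 fell by 0.56 ± 0.12, 0.46 ± 0.09 and 0.39 ± 0.09, and SNAI1 rose by 0.28 ± 0.07, a call lost without CP70 replicate 1 (0.25), PXD101 replicate 3 (0.27) or replicate 2 of the combined arm (0.27). Mesenchymal markers gave 3 rises and 1 fall among 11 (median 0.17), with the contractile proteins TAGLN and ACTA2 at 1.29 ± 0.21 and 1.01 ± 0.17. TGFBI stood at 0.33 and FN1, the fall, at -0.53, and both calls were lost without CP70 replicate 1 (0.29 and -0.46), among other arrays. VIM, at -0.02, was not called.

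Marker lists of other cell types moved as follows in the same comparison. Leukocyte markers gave 1 rise among 6, the immune adaptor TYROBP at 1.26 ± 0.17, and their mean level was 4.79 to 4.98 on the arrays with decitabine and 4.54 to 4.72 on the CP70 arrays without. Endothelial markers gave 0 calls among 6 in limma, with 0 at an unadjusted p under 0.05. Fibroblast markers gave 2 rises and 2 falls among 9, with COL1A1 at 1.20 ± 0.14 and COL1A2 at -0.78 ± 0.14. Their mean level was 7.60 to 7.63 with decitabine and 7.52 to 7.69 on the CP70 arrays without. Between the lines fibroblast markers gave 2 rises and 4 falls, and leukocyte and endothelial markers gave 0 calls in limma, with 0 at an unadjusted p under 0.05.

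**Figure D4:**
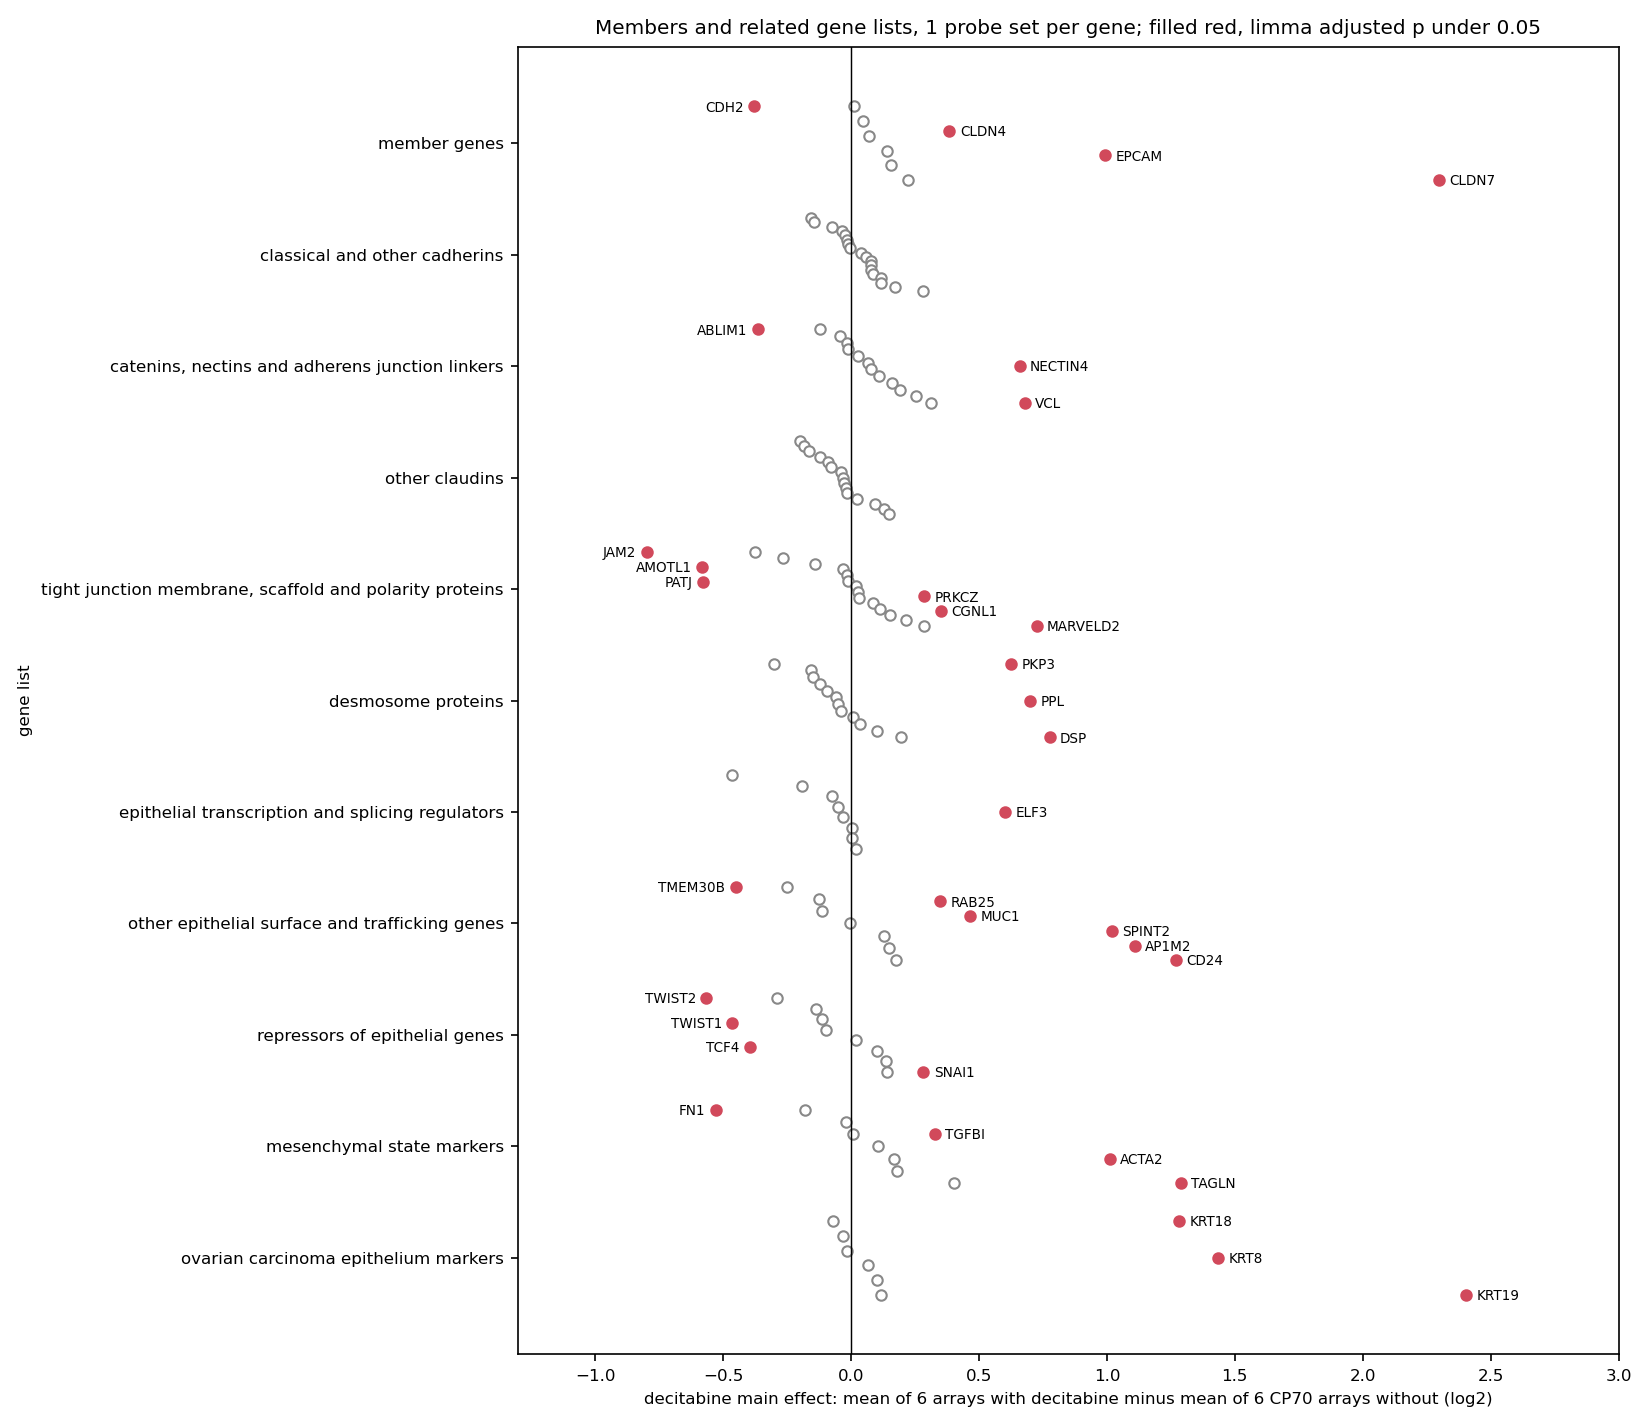
Each point is 1 gene by its brightest probe set, each row a list, and the x axis the decitabine main effect in log2 units. Filled red points have a limma adjusted p under 0.05 and are named; CLDN7 (2.297) and KRT19 (2.403) lie furthest right, and no other claudin or cadherin is filled apart from CLDN4 and CDH2.

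Against untreated CP70 alone, 25 list genes were called with decitabine, 17 with PXD101 and 26 with both drugs, where 7.04% (4.38% higher, 2.66% lower), 7.91% (3.88%, 4.03%) and 9.11% (5.52%, 3.59%) of all genes were called. Desmosome genes gave 2 rises and 0 falls of 15 with decitabine, 0 calls with PXD101 in limma (2 at an unadjusted p under 0.05) and 2 rises with both drugs. Surface and trafficking genes gave 4 rises and 1 fall, 1 and 2, and 4 and 1 of 13. Other cadherins gave 0 calls in each of the 3, with 3, 3 and 0 at an unadjusted p under 0.05 in limma. Without CP70 replicate 1 or 3, or without any 1 PXD101 array, 0 of the 17 calls with PXD101 were kept, and without CP70 replicate 2 all 17 were. The same fits called 0 and 10973 of all 54613 probe sets, and without 1 PXD101 array the differences of VCL were 0.83 to 0.87 and those of JUP (plakoglobin) 0.78 to 0.90. ESRP1 stood at -1.86 with decitabine, -2.85 with PXD101 and -1.92 with both drugs, and at -0.10, -1.09 and -0.17 with CP70 replicate 2 as the only untreated array. With decitabine 8 of the 25 calls and with both drugs 12 of the 26 remained against that 1 array, which is assumed to vary like the other groups, in fits that called 1205 and 1393 of all probe sets.

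The genes whose levels most resembled the members with group means spanning at least 1 were listed by Pearson's r, as a description in which the arrays share groups, lines and processing. CDH2 was matched over the 15 arrays by L3MBTL4 (0.994), PHF21B (0.990) and TLX3 (0.990), and over the 12 CP70 arrays by RPL31 (0.975), UST (0.962) and STPG1 (0.959). For EPCAM they were JAKMIP3 (0.972), HERC5 (0.967) and GPR84 (0.965) over all arrays, and HERC5 (0.974), GPR84 (0.973) and CCN2 (0.972) over CP70 arrays. CLDN1 lay closest to LINC01425 (0.992), EREG (0.991) and FBXO30 (0.989), and within CP70 to LIPT1 (0.984), DDX59 (0.977) and KDM7A (0.977). For CLDN7 the genes were IFI44 (0.970), IRAK2 (0.967) and CSRP1 (0.964), and within CP70 IER3 (0.984), IFI6 (0.982) and ERCC1 (0.974). No gene was named for more than 1 of the 4 members.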

How the data were processed

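The authors deposited 1 table of log2 values for 54675 probe sets on 15 arrays; per the submitters' processing notes R 2.10.1 and affy were used, and for background correction and normalization the method is not given in the sources used here. Per the labels' protocols, RNA was taken with RNeasy columns and amplified with the NuGEN WT-Ovation Pico system. Arrays give no counts; their number limits the precision. The labels say biological replicates, without saying which cultures were separate, so p-values measure the spread between these samples. The 62 control probe sets were left out. Of the rest, 41091 had 1 symbol, 1801 several and 11721 none. By Entrez ID 41037 of those with 1 symbol were matched to RefSeq, whose symbol was used, changed or not.

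All 54613 probe sets were fitted with limma 3.58.1 (lmFit and eBayes, R 4.3.3) on group means of all 15 arrays for 9 contrasts, with calls below an adjusted p of 0.05 (Benjamini-Hochberg, all probe sets). The script was checked on simulated data. Rank product, named in the design text, used 9 array pairs and 100 permutations at a false positive rate under 5% (Python 3.11.15, numpy 2.4.6, pandas 2.3.3, matplotlib 3.10.9). The probe set of highest mean stood for each gene. Each member was reported, with up to 4 called genes of smallest p from each list, and the 3 genes of highest correlation for members whose group means span 1 or more.

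The lists were other cadherins, adherens junction linkers, other claudins, tight junction genes, desmosome genes, epithelial regulators, surface and trafficking genes, repressors, mesenchymal markers, and markers of ovarian carcinoma, leukocytes, endothelium and fibroblasts. Of their 171 genes, 156 were measured and the others were not analysed here. The member genes and lists were chosen with earlier results of these data known, and the probe sets of the members by symbol alone. Alternatives were other sample sets, a replicate block, a level filter, 1 probe set per gene, array weights, 2 further normalizations, rank product, PXD101 arrays as controls, and leaving out arrays. Promoter windows came from RefSeq.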

Additional observations from a re-analysis of the deposited data

How the results depend on the processing

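Counts of called member probe sets (of 20) changed by more than 1.5 times as follows. With array weights they were 8 for CP70 against A2780 (5 in the reported fit), 7 for decitabine (3), 11 for PXD101 (3), 10 for both drugs against PXD101 (5) and 6 for the non-additive response (0). Those fits called 19343, 9526, 14166, 8829 and 7648 of all 54613 probe sets, against 13104, 3038, 3235, 3978 and 8 in the reported fit. With rank product they were 3, 1, 0, 1 and 2 for CP70 against A2780, decitabine, PXD101, both drugs against CP70 (5) and both drugs against PXD101. Fits of only the groups compared gave 0 for PXD101, 2 for both drugs against CP70 and 8 for both drugs against PXD101, with 0, 1586 and 6654 of all probe sets called. With 1 probe set per gene, CP70 against A2780 gave 3 of 10 members, a lower count out of fewer probe sets. The reported fit also had 3 member genes with a call. Without CP70 replicates 1 and 3 together, decitabine gave 1, PXD101 0 and both drugs 2, with 1205, 0 and 1393 of all probe sets called. Leaving out 1 array gave 4 to 5 for CP70 against A2780, 1 to 7 for decitabine, 0 to 10 for PXD101, 3 to 7 for both drugs against CP70, 3 to 6 against PXD101, 4 to 6 for the main effect, 0 to 6 for the non-additive response and 5 throughout for decitabine against A2780. Among these the 7 for decitabine, the 10 for PXD101 and the 6 for the non-additive response came without CP70 replicate 2, where 8610, 10973 and 7191 of all probe sets were called. The leave-out fits with 0 for PXD101 called 0 of all probe sets in limma.

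The replicate block, which pairs arrays by number, gave 0 member calls for PXD101 (1342 of all probe sets, against 3235) and changed no other count by over 1.5 times. The reported fit did not pair arrays. Between groups, deviations from group means correlated over 0.1 in 5 of 30 same-numbered pairs (r -0.32 to 0.38) and in 20 of 60 other pairs (r -0.37 to 0.40). TJP1 202011_at, at -0.07 in decitabine against CP70, turned to 0.50 (limma adjusted p = 0.0310) with PXD101 arrays in place of untreated CP70. Its group mean was lower with PXD101 (10.02) than in untreated CP70 (10.59), and the cause of that was not tested. Of the 68 member changes called in any fit, 31 were called in the reported fit. Over these 68, 898 alternative values kept their state, either called in the same direction or uncalled in both fits with any sign. Another 83 lost the call, 63 gained one and 1 reversed. The precision rests on 3 arrays a group, and levels near the lower quartile (CDH1, CLDN3 203953_s_at, CLDN6 237810_at) had no detection call.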
